A study of Mus musculus with 14 samples.

Results

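The genes described here encode subunits of the Mediator complex and were followed in left ventricles of UtyGT and WT mice. They were chosen by name, as protein-coding genes whose symbol starts with Med and a digit, together with Ccnc, Cdk8 and Cdk19. This gave 33 genes of 47642 with counts, of which 31 had enough counts to be tested. UtyGT males carried the gene trap Gt(XS0378)Wtsi in an early intron of Uty on chromosome Y, and WT males were isogenic C57BL/6.Y<129P2> animals without the trap. All mice were 40 days old, with 7 libraries from 7 different mice in each genotype. The trap is constitutive and descends from a single trapped embryonic stem cell line, so the libraries hold 1 allele in every cell type of the ventricle. Libraries were QuantSeq 3′ FWD, which sample only the 3′ ends of polyadenylated RNA, so transcript length was not divided out of the levels.

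Mediator is a large assembly that carries signals from DNA-bound transcription factors to RNA polymerase II at promoters. Its head and middle modules touch the polymerase, its tail offers most of the surfaces that activators bind, and Med14 is the scaffold that holds these modules together. A detachable kinase module, made of Cdk8 or its paralog Cdk19, cyclin C, Med12 or Med12l and Med13 or Med13l, binds the core and limits its contact with the polymerase. In mouse heart, Mediator is known above all through Med13, whose level in cardiomyocytes sets responses to thyroid hormone and other nuclear receptors, and through Med1, the subunit to which many nuclear receptors bind.

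A single member passed the test. Med25 was lower in UtyGT hearts, and its values did not overlap between genotypes. Sequence is shown for Med25, as the member called, and for Med13, as the member with the highest fold change and a known microRNA site. The Med25 gene (ENSMUSG00000002968) lies at chr7:44876765-44892712 on the minus strand of GRCm38, and none of its exons overlaps an exon of another annotated gene. Its RefSeq promoter (GRCm38.p6, chr7:44892375-44892674, minus strand, 5′ to 3′, from 250 bases before the start to 50 after) holds 1 match to the NRF1 motif (GCGCA and GCGC with any base between them), in capitals:
Med25 promoter: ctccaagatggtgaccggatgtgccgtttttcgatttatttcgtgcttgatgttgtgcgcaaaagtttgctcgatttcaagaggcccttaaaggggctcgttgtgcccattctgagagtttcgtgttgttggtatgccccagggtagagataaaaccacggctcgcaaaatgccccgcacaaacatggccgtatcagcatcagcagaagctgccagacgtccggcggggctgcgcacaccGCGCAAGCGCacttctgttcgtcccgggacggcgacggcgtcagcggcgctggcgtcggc
The Med13 promoter (GRCm38.p6, chr11:86357547-86357846, minus strand) holds 7 GC boxes, GGGCGG on either strand with overlaps counted, in capitals:
Med13 promoter: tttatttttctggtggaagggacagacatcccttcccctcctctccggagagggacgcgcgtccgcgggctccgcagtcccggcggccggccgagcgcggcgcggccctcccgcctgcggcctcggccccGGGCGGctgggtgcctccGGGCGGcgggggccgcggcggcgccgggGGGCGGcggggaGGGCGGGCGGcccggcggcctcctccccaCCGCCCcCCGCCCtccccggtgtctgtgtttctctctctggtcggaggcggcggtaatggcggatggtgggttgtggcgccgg
GC content was 57.7% in the Med25 window and 78.3% in the Med13 window. RefSeq gave 32 promoters for 28 of the 33 members. A GC box was found in 62.5% of them, against 35.7% of 32851 promoters of the same length. The NRF1 motif was found in 12.5% of the member promoters and in 4.60% of all promoters, and the ETS motif ACTTCCGG in 12.5% and 3.89%. Overlapping Med15 windows hold the same ETS match, which is counted in each. Median GC content was 57.8% in member promoters and 52.7% in all promoters. CCAAT was found in 37.5% and 37.4%, and TATAAA in 9.38% and 13.6%. All motifs were searched on both strands, and a match describes letters only.

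Med13 is a known target of miR-208a, a microRNA encoded in an intron of the cardiac myosin gene Myh6 in mouse. The microRNA (RefSeq, GRCm38.p6, chr14:54949072-54949093, minus strand) is shown with its seed, bases 2 to 8, in capitals, above the only complement of that seed in the Med13 3′ UTR of 3953 nt, which starts at UTR position 547 (GENCODE M21):
mmu-miR-208a-3p: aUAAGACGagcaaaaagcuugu
Med13 site: aatatatgtaatCGTCTTAattaa
The 3′ UTRs of Med13l, Med1, Med12, Cdk8 and Cdk19 held 0 such matches in the transcripts examined. The seed of mmu-miR-208b-3p, also encoded on chromosome 14, has the same letters, so the Med13 site matches it too. MicroRNAs were not measured in these libraries.

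Gene counts totalled 6357485 to 10268706 in UtyGT libraries and 6322161 to 9397378 in WT libraries, of which 3584 to 5217 and 3928 to 4940 fell on the 33 members. Uty had 1 to 6 counts in UtyGT libraries and 47 to 75 in WT libraries, in accord with the labels. All 8 cardiomyocyte markers were present at a summed level of 33859 to 52574 CPM in UtyGT libraries and 28439 to 42875 CPM in WT libraries. Of these 8, 1 was higher in UtyGT hearts and 0 lower, where all tested genes gave 4.7% and 3.34%. The marker called was Ryr2, at a log2 fold change of 0.42 ± 0.12 (SE, edgeR adjusted p = 0.0347). Lists of 6 fibroblast, 6 macrophage, 5 mural and 4 atrial markers held 0 calls. Of 6 endothelial markers 2 were lower in UtyGT hearts, with a summed level of 463 to 660 CPM against 603 to 902 CPM, and so were 2 of 5 red cell markers, with 1069 to 5105 CPM against 3185 to 6859 CPM. The part of these cells in any result below was not tested, and in whole ventricle fewer cells of a type and less RNA per cell cannot be told apart. UtyGT 6 and WT 4 had the highest values of their genotype on the first principal component, 54.7 and 59.1. WT libraries were spread along it, with WT 3 next at 26.2 and WT 6 and WT 7 at -24.6 and -33.2. Calls that change without UtyGT 6 and WT 4 are given with both values. Among members not called, leaving both out moved the log2 fold change by over 1.5 times for Med19 (0.17, and 0.31 without them), Med17 (0.16 and 0.28), Med28 (-0.19 and -0.13) and Med13l (0.16 and 0.11), besides Med22, which lay at 0.

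The summed level of the whole complex was much the same in the 2 genotypes. The 33 members together had 569 ± 18.4 CPM in UtyGT hearts (548 to 586) and 561 ± 15.7 CPM in WT hearts (541 to 584; SD, n = 7 each; CPM are counts scaled to library totals on genes and by TMM). Over all 14 libraries the most abundant member was Med1, at 61.1 ± 16.4 CPM. It was followed by Med28, a small subunit grouped here with the tail, at 56.8 ± 10.7 CPM. Next was Med4, which joins the middle module to the scaffold, at 50.1 ± 12.4 CPM (SD). These 3 did not differ beyond their spread, and their order was Med1, Med4, Med28 in UtyGT hearts and Med28, Med1, Med4 in WT hearts. The lowest levels counted were Med18 at 1.54 CPM, Med30 at 1.502 CPM and Med12 at 0.247 CPM. Med12 shares its 3′ end with Gm21986 on the same strand, so reads from it may not have been assigned to either gene, and its true rank is not known. Among tested members the head subunit Med22 varied least for its level, at 15.9 ± 1.59 CPM, and the middle subunit Med31 varied most, at 3.37 ± 2.60 CPM.

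By edgeR's quasi-likelihood test with Benjamini-Hochberg adjustment over 11563 genes, 0 of 31 tested members were higher and 1 was lower in UtyGT hearts. Over all tested genes 8.03% were called, 4.7% higher and 3.34% lower, so the share of members called lower, 3.23%, was near that of all genes. At an unadjusted p below 0.05 there were 7 members, 2 above 0 and 5 below, or 22.6% of those tested, where all tested genes gave 24.8%. DESeq2 called 0 members higher and 1 lower. The fold change was above 0 for 20 members and below 0 for 11, and the median log2 fold change was 0.16 for members and 0.01 for all tested genes. Of the 30 members not called, the 95% interval lay within a 1.5-fold change in either direction for 11.

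**Figure D1:**
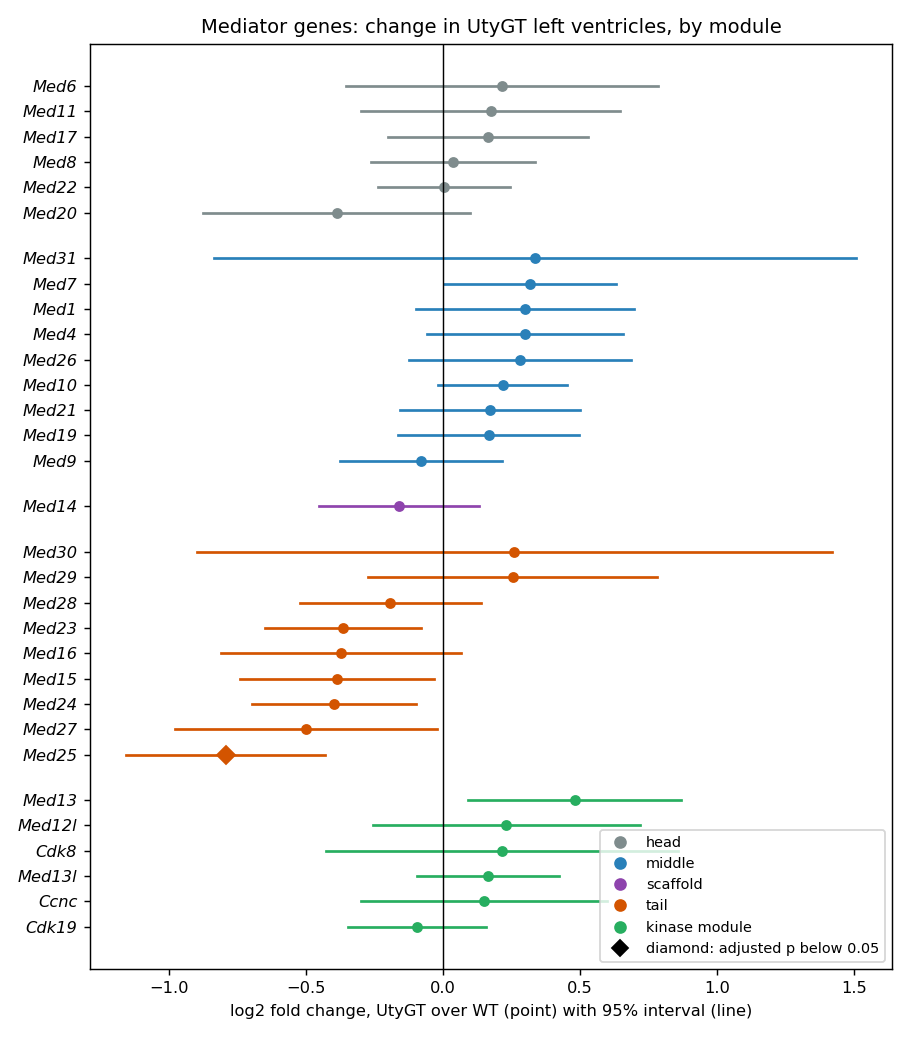
Log2 fold change of UtyGT over WT for the 31 tested Mediator genes (points, with lines for the 95% interval of the edgeR fit), grouped by module. Med25, at -0.79, is the only member called (diamond). Of 9 tail genes 7 lie left of 0, and of 9 middle genes 8 lie right of it.

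The tail is where the member called stands. Med25 binds activators of several families through its own activator-binding domain and joins Mediator by a von Willebrand factor A domain. Its lowest, median and highest levels were 11.5, 20.04 and 22.5 CPM in UtyGT hearts (75 to 197 counts) and 22.9, 29.7 and 42.5 CPM in WT hearts (176 to 361 counts). All 7 UtyGT libraries lay below the lowest WT library, as 2.14% of tested genes showed no overlap in either direction. UtyGT 4 was lowest at 11.5 CPM, while the other UtyGT libraries lay between 18.7 and 22.5 CPM. WT 3, WT 4 and WT 5 were high, at 40.5 to 42.5 CPM, and the other WT libraries lay at 22.9 to 29.7 CPM. The means were 19.0 ± 3.52 CPM in UtyGT hearts and 33.0 ± 8.46 CPM in WT hearts (SD, n = 7 each). The log2 fold change was -0.79 ± 0.17 (SE), a level of 0.577 times that of WT, with a 95% interval of -1.16 to -0.43 and an edgeR adjusted p of 0.0124. Med25 was called under each of the 24 alternatives run, with adjusted p from 0.000550 to 0.0487, and the highest came from the correction for GC content, with a log2 fold change of -0.58. After that correction the libraries overlapped, at 11.9 to 26.0 CPM in UtyGT hearts and 23.2 to 38.9 CPM in WT hearts.

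The subunits next to Med25 in the tail pointed the same way without passing the test. Med24 and Med23, which with Med16 form the part of the tail to which Med25 attaches, overlapped little. Med24 had 7.04, 8.08 and 9.38 CPM in UtyGT hearts and 7.74, 11.3 and 12.6 CPM in WT hearts (lowest, median, highest). The 5 upper WT libraries lay above all UtyGT libraries, and WT 1 and WT 2 lay among them. The log2 fold change of Med24 was -0.40 ± 0.14 (edgeR adjusted p = 0.0955, or 0.0446 without WT 1). Med23, which Elk1 binds after growth factor signalling, had 4.93, 6.32 and 6.93 CPM in UtyGT hearts and 6.92, 7.87 and 8.96 CPM in WT hearts. Only the lowest WT library, WT 3, reached into the UtyGT range, and the log2 fold change was -0.37 ± 0.13 (edgeR adjusted p = 0.102). The alternatives moved the pair apart. Corrected for GC content of the whole transcript, Med24 was at -0.26 (edgeR adjusted p = 0.323) and Med23 at -0.47 (edgeR adjusted p = 0.0522). Corrected on GC content at the 3′ end (last 500 nt), Med24 was at -0.16 (edgeR adjusted p = 0.612) and Med23 at -0.53 (edgeR adjusted p = 0.0318). Counts were small for both genes, at 38 to 80 in UtyGT libraries and 51 to 99 in WT libraries.

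Med15, which sterol-regulatory and Smad factors bind, had 4.79, 5.81 and 8.32 CPM in UtyGT hearts and 6.51, 7.79 and 10.9 CPM in WT hearts. UtyGT 5 and UtyGT 2 lay within the WT range and the other 5 UtyGT libraries below it. The log2 fold change was -0.39 ± 0.17 (edgeR adjusted p = 0.161), and -0.22 under the GC correction (edgeR adjusted p = 0.464). Med27, one of the small subunits placed in the tail or in the head by different structural models, had 7.58, 7.96 and 17.0 CPM in UtyGT hearts and 8.32, 13.4 and 23.6 CPM in WT hearts. UtyGT 6 and WT 4 were the high libraries of their genotypes, and the log2 fold change was -0.50 ± 0.23 (edgeR adjusted p = 0.181). Med27 was called without these 2 libraries, at -0.52 with an edgeR adjusted p of 0.0392.

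Med16 had 23.4 ± 7.54 CPM in UtyGT hearts and 30.3 ± 9.15 CPM in WT hearts, with a log2 fold change of -0.37 ± 0.21 (edgeR adjusted p = 0.278). Under the GC correction it was -0.12 (edgeR adjusted p = 0.708) and on the last 500 nt -0.17 (edgeR adjusted p = 0.528). Its 3′ end holds a repeat that is shared, at 95% identity over at least 100 nt, with 153 other genes, so its counts are uncertain. Med28 had a log2 fold change of -0.19 ± 0.16. The small subunits Med29 and Med30, whose placement also varies between models, were the tail members above 0, at 0.25 ± 0.25 and 0.26 ± 0.55, and Med30 had only 1 to 31 counts in UtyGT libraries and 2 to 19 in WT libraries. In all, 7 of 9 tail genes were below 0 and 5 had an unadjusted p below 0.05, with a median log2 fold change of -0.37. An unadjusted p below 0.05 was found for 24.8% of all tested genes and 22.6% of the 31 tested members.

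**Figure D2:**
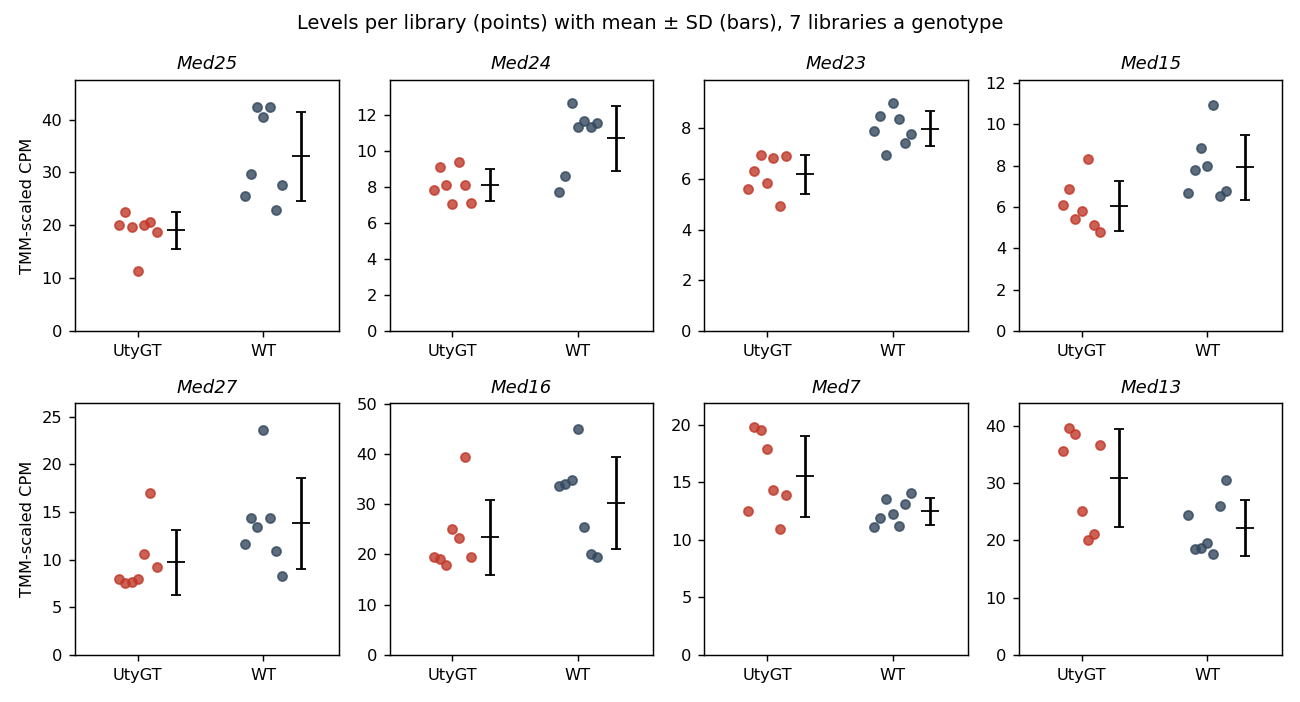
TMM-scaled CPM per library (points) with mean ± SD (bars) for 8 Mediator genes, 7 UtyGT libraries left and 7 WT libraries right in each panel. Med25 is the only gene shown whose genotypes do not overlap. In Med27 and Med16 the highest point of each genotype is UtyGT 6 or WT 4.

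Most middle genes had fold changes above 0, and none was called. Med7, which in yeast pairs with Med21 to form the hinge of the module, had 10.9, 14.3 and 19.8 CPM in UtyGT hearts and 11.1, 12.3 and 14.1 CPM in WT hearts (lowest, median, highest). UtyGT 2, UtyGT 3, UtyGT 4 and UtyGT 5 lay above all WT libraries for Med7 while UtyGT 6 lay below them. The log2 fold change of Med7 was 0.32 ± 0.15 (edgeR adjusted p = 0.195), and 0.13 under the GC correction (edgeR adjusted p = 0.614). Med1 had 43.7, 76.1 and 79.3 CPM in UtyGT hearts and 30.7, 52.7 and 87.0 CPM in WT hearts, and the genotypes overlapped fully. Its log2 fold change was 0.30 ± 0.19 (edgeR adjusted p = 0.340). Med4 gave 0.30 ± 0.17 and Med10, another core subunit of the module, 0.22 ± 0.11. Med26, which recruits elongation factors to Mediator, gave 0.28 ± 0.19. Med21 and Med19, a small subunit at the side of the module, gave 0.17 ± 0.16 and 0.17 ± 0.16. Med31 gave 0.33 ± 0.56 with 4 to 59 counts in UtyGT libraries and 7 to 49 in WT libraries. Med9, the partner of Med4 in yeast, was the only middle gene below 0, at -0.08 ± 0.14. Thus 8 of 9 were above 0, 1 had an unadjusted p below 0.05 (24.8% of all tested genes), and the median was 0.28, with 0 calls.

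In the head, which touches the polymerase and TBP, 5 of 6 tested genes were above 0 and the median was 0.10. Med17, the central subunit of the head, gave 0.16 ± 0.17, and its neighbours Med6 and Med11 gave 0.21 ± 0.27 and 0.17 ± 0.23. Med8, which ties the jaw of Med18 and Med20 to the head, and Med22, the partner of Med11, gave 0.04 ± 0.14 and 0.00 ± 0.11, and the interval of Med22 ran from -0.24 to 0.25. Med20, which pairs with Med18 in that jaw, stood apart at -0.39 ± 0.23 (edgeR adjusted p = 0.310). The exons of Med20 overlap those of Gm20517 on the same strand, which had 1.69 CPM in UtyGT hearts and 1.14 CPM in WT hearts. Med18 had 6 to 20 counts in UtyGT libraries and 5 to 28 in WT libraries and was not tested. Med14, the scaffold encoded on chromosome X, gave -0.16 ± 0.14 (edgeR adjusted p = 0.496).

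The levels of the tail and middle genes were also summed in each library, as a description without a test, formed after the genes had been seen. The 9 tail genes summed to 124, 130 and 142 CPM in UtyGT hearts and 146, 170 and 188 CPM in WT hearts (lowest, median, highest). All UtyGT libraries lay below all WT libraries. Without Med25 the tail summed to 104, 111 and 122 CPM in UtyGT hearts and 119, 136 and 147 CPM in WT hearts, and only WT 7 reached into the UtyGT range. The 9 middle genes summed to 205, 219 and 237 CPM in UtyGT hearts and 171, 184 and 209 CPM in WT hearts. Here 6 UtyGT libraries lay above all WT libraries and UtyGT 6 among them. The ratio of tail to middle was 0.590 ± 0.0370 in UtyGT hearts (0.533 to 0.650) and 0.908 ± 0.134 in WT hearts (0.700 to 1.06). Without Med25 it was 0.504 ± 0.0374 in UtyGT hearts and 0.729 ± 0.0875 in WT hearts (SD, n = 7 each). The ranges, 0.450 to 0.558 and 0.5677 to 0.833, did not meet. Leaving out Med28 as well ended this separation, since UtyGT 6 then lay above WT 7. The ratio also varied between libraries of 1 genotype, which are given here with the GC slope described below. It was 1.06, 1.04 and 1.02 in WT 4, WT 3 and WT 5, which had the highest slopes, and 0.700 in WT 7, which had the lowest WT slope, -0.0812. It was 0.619 in UtyGT 6, which had the highest UtyGT slope, 0.151, 0.650 in UtyGT 5, with a slope of -0.0187, and 0.533 in UtyGT 3, with the lowest slope, -0.299. After the GC correction the ratio was 0.609 ± 0.0273 in UtyGT hearts (0.575 to 0.658) and 0.866 ± 0.0946 in WT hearts (0.714 to 0.965), and on the last 500 nt 0.602 ± 0.0291 in UtyGT hearts and 0.889 ± 0.108 in WT hearts. The head summed to 101 ± 10.9 CPM in UtyGT hearts and 103 ± 10.3 CPM in WT hearts, and the kinase module to 103 ± 9.94 and 89.3 ± 10.4 CPM. Only Med25 of these tail and middle genes was called, and abundant genes such as Med1, Med4 and Med28 weigh most in the sums. Med28 had 26.9 CPM in UtyGT 6, 50.4 to 63.2 CPM in the other UtyGT libraries and 47.7 to 74.0 CPM in WT libraries. The place of UtyGT 6 below all WT libraries in tail sum and ratio therefore leans on Med28, although its ratio, 0.619, was high among UtyGT libraries. In UtyGT 6 the tail summed to 127 CPM and the middle to 205 CPM. In WT 7 these sums were 146 and 209 CPM, with Med28 at 60.5 CPM. Without Med28, UtyGT 6 therefore lay above WT 7 in tail sum and in ratio, and the genotypes overlapped. GC-corrected sums without Med28 were not formed.

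**Figure D3:**
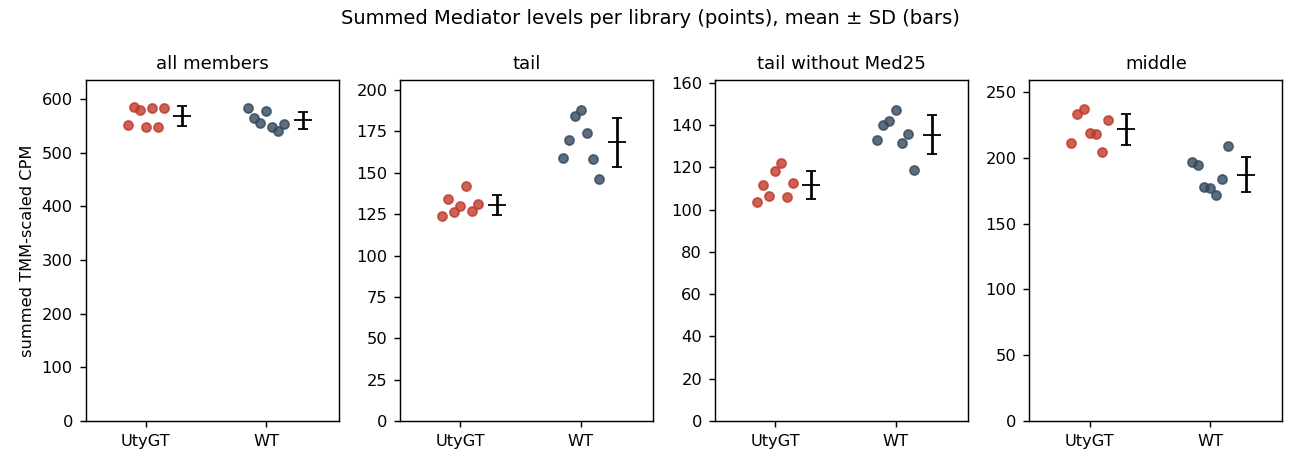
Summed TMM-scaled CPM of all 33 members, of the 9 tail genes with and without Med25, and of the 9 middle genes, per library (points) with mean ± SD (bars), UtyGT left and WT right. The totals coincide, the tail sums of 124 to 142 CPM in UtyGT hearts lie below those of 146 to 188 CPM in WT hearts, and the middle sums lie mostly above.

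The modules also differed in the GC content of their transcripts. The longest coding transcripts had a median GC content of 55.5% in the tail, 50.2% in the head, 48.6% in the middle and 46.4% in the kinase module, against 50.1% for all tested genes. Across the 31 tested members the log2 fold change and GC content correlated with a Pearson r of -0.42 and a Spearman rho of -0.33. Across 11550 tested genes these were -0.38 and -0.41. Genes of a library share its depth and base composition and are not independent replicates, so these are descriptions. The slope of level on GC content, in log2 units per 10 points and centred over the 14 libraries, was -0.299 to 0.151 in UtyGT libraries and -0.0812 to 0.334 in WT libraries. With a correction for GC content in each library, the median of the tail was -0.26 and that of the middle 0.20, with 7 of 9 tail genes still below 0 and 8 of 9 middle genes above. Corrected on the last 500 nt, the medians were -0.27 and 0.16. Over the 24 alternatives the tail median lay between -0.39 and -0.26 and the middle median between 0.16 and 0.33.

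**Figure D4:**
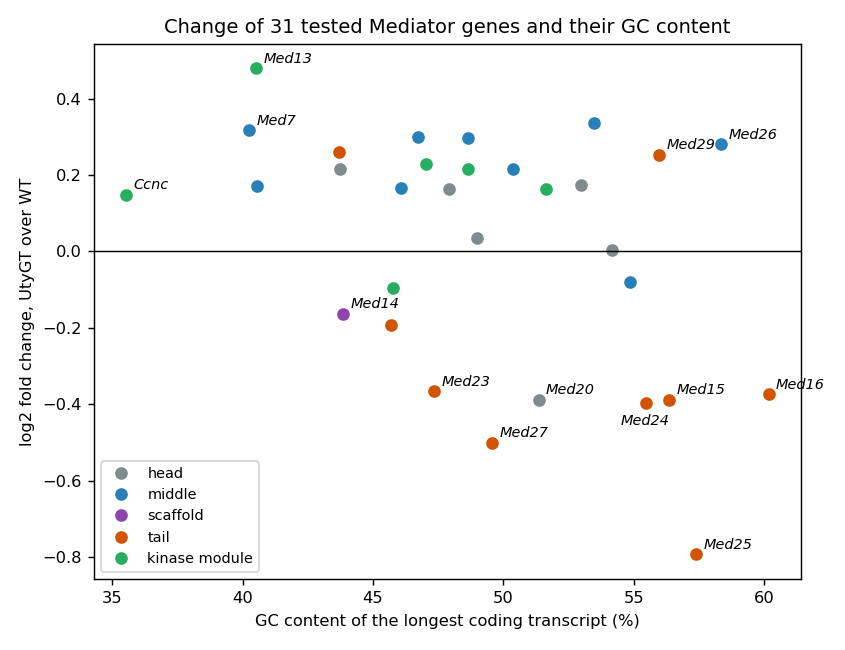
Log2 fold change of UtyGT over WT (y axis) against GC content of the longest coding transcript in percent (x axis) for 31 tested Mediator genes, coloured by module. Pearson's r is -0.42. Med16, Med25, Med15 and Med24, at 60.2%, 57.4%, 56.4% and 55.5% GC, lie below 0, and Ccnc, Med7 and Med13, at 35.5%, 40.2% and 40.5%, above it. Med23 and Med27, at 47.4% and 49.6%, also lie below 0, and Med26 and Med29, at 58.4% and 56.0%, above 0.

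Some members, picked after their values were seen, were high or low in the same libraries. Med16, Med20 and Med27 were highest in UtyGT 6 among UtyGT libraries, at 39.5, 31.7 and 17.0 CPM, and highest in WT 4 among WT libraries, at 44.9, 32.8 and 23.6 CPM. They were lowest among WT libraries in WT 7, at 19.6, 10.6 and 8.32 CPM. Those are the libraries at the ends of the GC slope, with the highest value of each genotype, 0.151 and 0.334, in UtyGT 6 and WT 4, and the lowest WT value, -0.0812, in WT 7. Med31 ran the other way, lowest in UtyGT 6 (0.420 CPM) among UtyGT libraries, and lowest in WT 4 (0.965 CPM) and highest in WT 7 (6.91 CPM) among WT libraries. Med25 had 20.7 CPM in UtyGT 6, near its UtyGT median. Among WT libraries it was highest in WT 3, WT 4 and WT 5, which had the 3 highest GC slopes (0.199, 0.334 and 0.152). Without UtyGT 6 there were 5 members called, while all tested genes gave 922 called higher and 1330 lower. Med13 was then higher, at a log2 fold change of 0.54 (edgeR adjusted p = 0.0371). Lower were Med25 at -0.83, Med16 at -0.57 (edgeR adjusted p = 0.0312), Med20 at -0.60 (edgeR adjusted p = 0.0440) and Med27 at -0.71 (edgeR adjusted p = 0.0191). Without WT 4 and UtyGT 6 together, 2 were called, Med25 and Med27, and 834 of all tested genes were lower. The part of base composition in these differences was not tested.

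None of the 6 tested genes of the kinase module passed the test, and the median log2 fold change was 0.19 with 5 of 6 above 0. Med13, which links the kinase module to the core, had 20.05, 35.6 and 39.6 CPM in UtyGT hearts and 17.6, 19.6 and 30.6 CPM in WT hearts (lowest, median, highest). UtyGT 1, UtyGT 2, UtyGT 3 and UtyGT 7 lay above all WT libraries, at 35.6 to 39.6 CPM, and the other UtyGT libraries among them. The log2 fold change was 0.48 ± 0.18, with an interval of 0.09 to 0.87 and an edgeR adjusted p of 0.116. Under the GC correction it was 0.29 (edgeR adjusted p = 0.262). Myh6, whose intron holds the microRNA printed above with the Med13 site, had 6268 ± 1288 CPM in UtyGT hearts and 6266 ± 1365 CPM in WT hearts, with a log2 fold change of 0.00 ± 0.16. Myh7, on the same chromosome as Myh6, had 37.9 ± 12.4 CPM in UtyGT hearts and 51.2 ± 21.7 CPM in WT hearts. The log2 fold change of Myh7 was -0.43 ± 0.26 (edgeR adjusted p = 0.316). Med13l, the Med13 paralog without that seed match, had 36.9, 42.7 and 50.5 CPM in UtyGT hearts and 30.97, 35.7 and 53.5 CPM in WT hearts. WT 1 was above every other library for Med13l, and its log2 fold change was 0.16 ± 0.12 (edgeR adjusted p = 0.429).

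The kinases and their cyclin overlapped between genotypes. Cdk19 had 13.9, 16.2 and 18.8 CPM in UtyGT hearts and 14.3, 18.1 and 19.9 CPM in WT hearts. Its log2 fold change was -0.10 ± 0.12 (edgeR adjusted p = 0.666), the only negative value in the module. Cdk8, its less abundant paralog, had 1.17, 1.98 and 4.49 CPM in UtyGT hearts and 1.53, 1.79 and 3.12 CPM in WT hearts, with 10 to 32 and 13 to 24 counts. UtyGT 2 and UtyGT 3 were above all WT libraries and UtyGT 5 below them, and the log2 fold change was 0.22 ± 0.31 (edgeR adjusted p = 0.703). Ccnc, which encodes cyclin C, had 4.25, 6.45 and 8.84 CPM in UtyGT hearts and 3.12, 6.30 and 7.19 CPM in WT hearts. The ranges coincided for most of their length, with a log2 fold change of 0.15 ± 0.21 (edgeR adjusted p = 0.709). Med12l had 2.46, 4.13 and 6.19 CPM in UtyGT hearts and 2.06, 3.88 and 4.79 CPM in WT hearts, with a log2 fold change of 0.23 ± 0.23 (edgeR adjusted p = 0.574). Its 3′ end overlaps Igsf10 on the opposite strand, which had 2.07 CPM in UtyGT hearts and 2.08 CPM in WT hearts. Med12, the subunit that activates the kinase, had 1 to 5 counts in UtyGT libraries, 19 in all, and 0 to 3 in WT libraries, 8 in all, and was not tested. WT 6 and WT 7 had 0 counts of Med12, where the limit of 3 counts corresponds to 0.390 and 0.423 CPM. Gm21986, the gene that shares its 3′ end, had 0 counts in UtyGT libraries and 5 in all WT libraries.

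Paralogs of the kinase module were compared as a share of the counts of each pair, which needs no scaling. Cdk19 took 87.1 ± 5.85% of the Cdk19 and Cdk8 counts in UtyGT hearts and 89.4 ± 2.54% in WT hearts, a difference of -2.26 ± 2.41 points (SE; exact two-sided permutation p = 0.402, adjusted over 3 pairs 0.402). Med12l took 91.8 ± 5.29% of its pair in UtyGT hearts and 95.6 ± 4.85% in WT hearts, a difference of -3.74 ± 2.71 points (exact permutation p = 0.191, adjusted 0.370). Med13l took 58.4 ± 7.91% in UtyGT hearts and 63.0 ± 6.61% in WT hearts, a difference of -4.62 ± 3.90 points (exact permutation p = 0.247, adjusted 0.370). In both genotypes Cdk19 and Med13l had more reads than their paralogs on average, and no pair differed beyond the spread between libraries. Med13l took its lowest share, 48.9%, in UtyGT 3, where Med13 had more reads. Reads at the shared 3′ end of Med12 and Gm21986 may be missing from the counts, so the share of Med12l cannot be read as a preference over Med12. Without UtyGT 2 the Cdk19 difference was -0.607 points and without UtyGT 5 it was -3.43 points. The Med13l difference was -3.04 points without UtyGT 3 and -6.64 points without UtyGT 6, and that of Med12l -2.43 points without UtyGT 5 and -5.38 points without WT 2. Pairs held 121 to 169, 21 to 54 and 401 to 691 counts per library, so a shift of a few points was not detectable for Med12l.

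**Figure D5:**
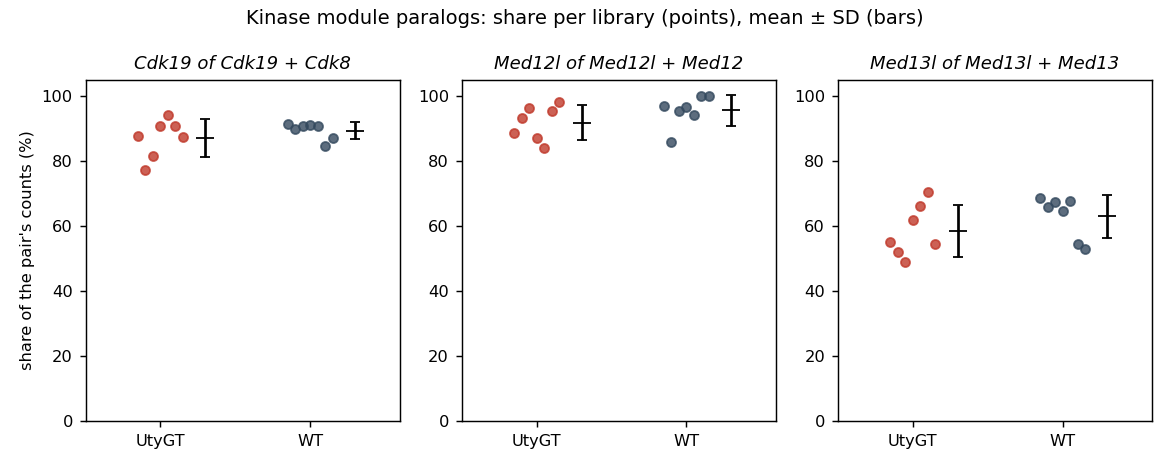
Share of each kinase module paralog in the counts of its pair, in percent, per library (points) with mean ± SD (bars), UtyGT left and WT right. The UtyGT and WT means are 87.1 and 89.4% for Cdk19, 91.8 and 95.6% for Med12l, and 58.4 and 63.0% for Med13l, and all ranges overlap.

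The machinery that Mediator contacts was set beside it in 4 lists. Over all tested genes 4.7% were called higher and 3.34% lower, and calls in each list are given beside these shares without a test. Of 12 subunits of RNA polymerase II, 1 was higher and 0 were lower in UtyGT hearts, with a median log2 fold change of -0.01. It was Polr2l, a small subunit shared by the 3 nuclear polymerases in mammals, at 21.7 ± 5.74 CPM in UtyGT hearts and 13.3 ± 2.62 CPM in WT hearts, a log2 fold change of 0.70 ± 0.18 (edgeR adjusted p = 0.0247) without overlap. The end of its transcript resembles that of 3 other genes, so its counts are uncertain. Without UtyGT 1, UtyGT 4 or WT 3 there were 0 calls in this list, without WT 1 there were 2, and without UtyGT 6 there were 3.

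Of 31 tested general transcription factors, 4 were higher and 0 lower, where all tested genes gave 4.7% and 3.34%, with a median of 0.13. Taf13, a subunit of TFIID, had 28.8 ± 7.48 CPM in UtyGT hearts and 17.2 ± 2.91 CPM in WT hearts, a log2 fold change of 0.74 ± 0.18 (edgeR adjusted p = 0.0232). Taf3, the TFIID subunit that binds trimethylated H3K4, rose by 0.54 ± 0.15 on the log2 scale (edgeR adjusted p = 0.0359). Gtf2h2, a subunit of TFIIH, rose by 0.75 ± 0.19 (edgeR adjusted p = 0.0285), and Ccnh, the cyclin of the TFIIH kinase, by 0.43 ± 0.12 (edgeR adjusted p = 0.0411). The libraries of the genotypes overlapped for each of these 4 genes. Their transcripts had 38.7 to 46.5% GC, and under the GC correction 1 call was left in the list. There were 0 calls without WT 3 or WT 4, 1 without UtyGT 1, UtyGT 3, UtyGT 7 or WT 5, and 2 without UtyGT 2 or WT 2.

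Of 24 elongation factors, 1 was higher and 0 lower, where all tested genes gave 4.7% and 3.34%, with a median of 0.11. Supt16, a subunit of the histone chaperone FACT, had 22.3 ± 5.07 CPM in UtyGT hearts and 14.6 ± 2.53 CPM in WT hearts, a log2 fold change of 0.61 ± 0.16 (edgeR adjusted p = 0.0280). This list had 0 calls under the GC correction and without UtyGT 1, UtyGT 7, WT 3, WT 4 or WT 5, and 4 calls without UtyGT 6. Of 14 tested nuclear receptors and coactivators of the heart, 1 was higher and 1 lower, beside the same shares of all tested genes, with a median of 0.12. Ppargc1a, which encodes the coactivator PGC-1α that binds Med1, had 311 ± 66.7 CPM in UtyGT hearts and 197 ± 35.5 CPM in WT hearts, a log2 fold change of 0.66 ± 0.15 (edgeR adjusted p = 0.0136). Thra, which encodes thyroid hormone receptor α, had 168 ± 42.6 CPM in UtyGT hearts and 262 ± 70.6 CPM in WT hearts, a log2 fold change of -0.64 ± 0.19 (edgeR adjusted p = 0.0419). Exons of Thra overlap those of Nr1d1 on the opposite strand, and the strand setting of the counts is not given in the sources used here. This list had 0 calls under either GC correction. It had 1 call without any 1 of UtyGT 1, 2, 3, 4, 5 or 7 or WT 2, 3, 4 or 5, and 5 calls without UtyGT 6.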

How the data were processed

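Left ventricles of 14 mice were profiled with QuantSeq 3′ FWD libraries. Per the methods of the study, the authors aligned reads to GRCm38/mm10 on the Bluebee platform and deposited counts per gene said to be made by featureCounts v1.6.0 on Ensembl v98. Entries in the form that htseq-count writes leave the counter, and how it treated overlapping genes, unsettled. CASAVA 1.4, FastQC, STAR and DESeq2 1.22.2 also stand in the submitters' processing notes. The strand setting of the counting is not given in the sources used here, and exons of 14 members overlap another gene on the opposite strand only and those of 4 a gene on the same strand. The 5 entries that name no gene held 45.9% to 49.1% of a library's reads and entered neither totals nor tests, nor did 4984 annotated entries without counts. As a signal, the authors deposited baseMean, a mean of counts scaled by DESeq2. The deposited log2 fold changes with their errors, the test statistic, a score, and the deposited p-values are the authors' own comparison of WT over UtyGT, and none was used. Columns named the genotype but not the mouse, so library numbers are names only.

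Counts were fitted in R 4.3.3 with edgeR 4.0.16: filterByExpr with a minimum count of 10, TMM scaling, the robust quasi-likelihood F test on genotype alone, and p-values adjusted over 11563 genes after Benjamini and Hochberg. A gene is called at an adjusted p below 0.05, and errors of fold changes come from this fit. As alternatives the fit was repeated with DESeq2 1.42.0, with RLE scaling, without composition scaling, with no filter, with a filter at 1 CPM in at least 7 libraries, with limma voom (limma 3.58.1), with a lowess correction for GC content in each library (span 0.3, 3 iterations, prior count 2), with surrogate variables from sva 3.50.0 (2 found), without WT 4 and UtyGT 6, and without each library in turn. The correction on GC content of the last 500 nt was chosen after seeing the data. Paralog shares were compared by exact permutation over 14 libraries. GC content came from GENCODE M21 on GRCm38, matched by identifier for 99.1% of genes, and sequences from RefSeq. Between libraries of 1 genotype the chi-square over genes was 8.29 to 176 times its degrees of freedom, so none was treated as a repeat of another. Without molecular identifiers, reads may repeat 1 molecule, and limits for counts of 0 include only counting error. Scripts were tested on simulated data.

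The members and the lists were chosen with earlier results of these data known. Every tested member was named with its fold change. Values by library were given for members called or with an unadjusted p below 0.05 and for the kinase module, and up to 4 genes with the smallest adjusted p were named in each further list, of which those called are given. GC-corrected sums and the values of Med1, Med16, Med20 and Med31 by library were added after their values were seen.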

Additional observations from a re-analysis of the deposited data

Results flagged for a closer look

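In 9 of 68 groups of 7 libraries, 1 library lay far from the other 6 of its genotype, by a gap test that chance passes in about 1 in 20 groups. Among UtyGT hearts, UtyGT 6 was highest for Med16 (39.5 CPM, the next library 25.1), Med20 (31.7, next 20.4) and Med27 (17.0, next 10.6), and lowest for Med28 (26.9, next 50.4). UtyGT 4 was lowest for Med25 (11.5, next 18.7), and without it Med25 had a log2 fold change of -0.70 and an edgeR adjusted p of 0.0215. Among WT hearts, WT 4 was highest for Med19 (14.9 CPM, next 10.5) and Med27 (23.6, next 14.3), and WT 1 was highest for Med13l (53.5, next 38.4). The share of Med12l in its pair was lowest in WT 2, at 85.7%, where the next library had 94.3%. UtyGT 6 and WT 4 lay at one end of the first principal component, at 54.7 and 59.1.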

How the results depend on the processing

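Med25 was called under all 24 alternatives, and no other member was lost, since none was called. The members called lower numbered 2 with the 3′ GC correction and without WT 4 and UtyGT 6 together, and 3 with surrogate variables, which also gave 2 called higher (Med13 and Med4). With each library left out the members called higher ranged from 0 to 1 and those lower from 1 to 4, subunits of RNA polymerase II from 0 to 3, general factors from 0 to 5, elongation factors from 0 to 4, nuclear receptors from 1 to 5, and all tested genes from 276 to 922 higher and from 146 to 1330 lower. All tested genes called higher numbered 337 with no filter, 297 with the GC correction and 1130 with surrogate variables. Those called lower numbered 658 with DESeq2, 243 with the GC correction, 834 without WT 4 and UtyGT 6, and 1113 with surrogate variables. Polymerase subunits called numbered 2 with DESeq2, without WT 4 and UtyGT 6 and with surrogate variables. General factors called numbered 2 with no filter, 1 with the GC correction and 2 with the 3′ GC correction. Elongation factors called numbered 0 with the GC correction and 2 without WT 4 and UtyGT 6, and nuclear receptors 0 with either GC correction and 4 with surrogate variables. Where fewer samples were fitted, the design itself differed; otherwise the cause was not tested.

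Of 31 members, the GC correction moved 11 fold changes nearer to 0 and 6 farther from it by over 1.5 times on the log2 scale, and the 3′ GC correction 10 and 6. Fold changes near 0 turned their sign. The log2 value of Med22 was -0.011 with DESeq2, -0.0053 with RLE scaling, -0.0068 with no filter, -0.0039 with voom, -0.0011 without WT 4 and UtyGT 6, and -0.034 to 0.049 with each library left out (below 0 without UtyGT 1, UtyGT 4, WT 1, WT 3 or WT 4). Med8 was -0.011 with the GC correction and -0.036 to 0.094 with each library left out (below 0 without UtyGT 5, UtyGT 6 or WT 6). Ccnc was -0.0091, -0.022 and -0.025 with the GC correction, the 3′ GC correction and surrogate variables. Med21 was -0.019 with the GC correction, and Med9 was 0.044 and 0.049 with both GC corrections. Med31 was -0.056 with voom and -0.33 with surrogate variables, Med30 -0.20 with surrogate variables and -0.18 to 0.47 with each library left out (below 0 without UtyGT 2), and Med6 -0.0099 with surrogate variables. The median of members was 0.16, and 0.05 with the GC correction and 0.01 with surrogate variables. The 3 paralog shares kept their direction with each library left out, at -3.43 to -0.607 points for Cdk19, -5.38 to -2.43 for Med12l and -6.64 to -3.04 for Med13l.

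No paired analysis was possible because the columns carry no mouse and the labels give the genotypes no shared replicate numbers. Depth limits Med12, Med18, Med30 and Med31, with few counts per library, and intervals of 19 of 30 members not called reach beyond a 1.5-fold change.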
